A study of Mus musculus with 48 samples.

Results

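Blood RNA of ovariectomized mice with and without chronic stress was compared on 12 of the 48 one-colour Agilent mouse expression arrays of the series, chosen by title, tissue and surgery and by no measured value. The 6 arrays labelled OVX came from unstressed mice. The 6 arrays labelled OVX+stress came from mice that had been exposed to chronic ultra-mild stress (CUMS), a schedule of weak and varied disturbances of housing, feeding and lighting. All 12 mice were C57BL/6J females of 17 weeks, and all had undergone ovariectomy, which removes the ovaries and the oestrogen they make. The comparison therefore gives the difference between stressed and unstressed mice on that background. From each mouse 300 µl of blood was drawn under pentobarbital (50 mg/kg) and spun, and RNA was taken from the pelleted cells, so red cells, white cells and platelets were measured together. The titles give a group and a replicate number, and each array was taken as a separate mouse. Arrays of medial prefrontal cortex in the series were not used here. Whether these came from the same mice is not stated in the titles.

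Whole blood RNA is a mixture of cell types. Young red cells, which still hold RNA, supply the globin transcripts, lymphocytes and natural killer (NK) cells supply those of antigen receptors and killing proteins, and neutrophils and monocytes supply those of granule proteins and innate receptors. Stress hormones, glucocorticoids above all, are known to move lymphocytes and neutrophils between blood and tissues. MHC class II molecules, which present peptides to helper T cells, are made in blood mainly by B cells. In bulk samples such as these, fewer cells of a type and less RNA per cell cannot be told apart.

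Levels are given as log2 of the signal relative to the 75th percentile of the same array, so a level of 0 lies at that percentile, and differences are OVX+stress minus OVX on the log2 scale. Before this shift the 75th percentile was 110 to 192 units on OVX arrays and 103 to 144 units on OVX+stress arrays, and 30465 to 34838 and 30163 to 32572 probes per array were well above background. The arrays lay on different slides: OVX 1 to 4 on slide 2, and OVX 5 and 6 with all 6 OVX+stress arrays on slide 3. Slide and stress thus overlapped in part, and 662 of 25894 probes (2.56%) differed between the OVX arrays of slide 3 and slide 2 (limma, adjusted p under 0.05), 307 higher (1.19%) and 355 lower (1.37%). One library stood apart in its cell markers: the neutrophil list score was 2.46 in OVX+stress 5 and at most -0.12 in the other 5 OVX+stress mice. Every result below was therefore also computed with slide as a block, which compares the groups within slide 3, and without OVX+stress 5. Markers of blood cells were abundant in every library, with the alpha globin Hba-a1 between 11.67 and 12.40 and the B cell receptor subunit Cd79a between 4.20 and 5.74. Of the markers of tissues that blood could carry over, 2 of 8 fat cell, 2 of 7 endothelial, 1 of 6 connective tissue and 3 of 6 liver genes were well above background on all 12 arrays.

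Stress after ovariectomy was accompanied by many small differences. Of the 25894 probes tested, 6611 (25.5%) were called by limma at an adjusted p under 0.05, 3393 higher (13.1%) and 3218 lower (12.4%) in OVX+stress mice. The median size of the called differences was 0.49 with a median SE of 0.15 over all probes, and 188 called probes exceeded 1, all of them higher. The groups did not overlap for 2872 probes (11.1%). With 1 probe for each of 13487 genes, 1406 genes were higher (10.4%) and 2102 lower (15.6%), and the median difference was -0.11. With slide as a block no probe was called by limma, while 9570 had an unadjusted p under 0.05. Of the 6611 called probes, 6595 kept their sign with the block and 4462 of these had an unadjusted p under 0.05 in it. The block reuses all OVX+stress arrays and OVX 5 and 6, on which these probes were called. The kept signs are therefore no independent check. The median of the probes called higher moved from 0.60 to 0.46 and that of the probes called lower from -0.41 to -0.42. Without OVX+stress 5, 7474 probes (28.9%) were called, of which 5988 were among the 6611. With the block and without OVX+stress 5, 3146 were called, 1459 higher (5.63%) and 1687 lower (6.52%), of which 1365 were among the 6611. Scaling by spike-in RNA in place of the 75th percentile lowered every difference by a shared amount (-0.28 for the median of all probes), so directions below are relative to the bulk of the transcripts.

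The plot of list scores by array shows where the named cell types and pathways stood in each mouse.

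**Figure D1:**
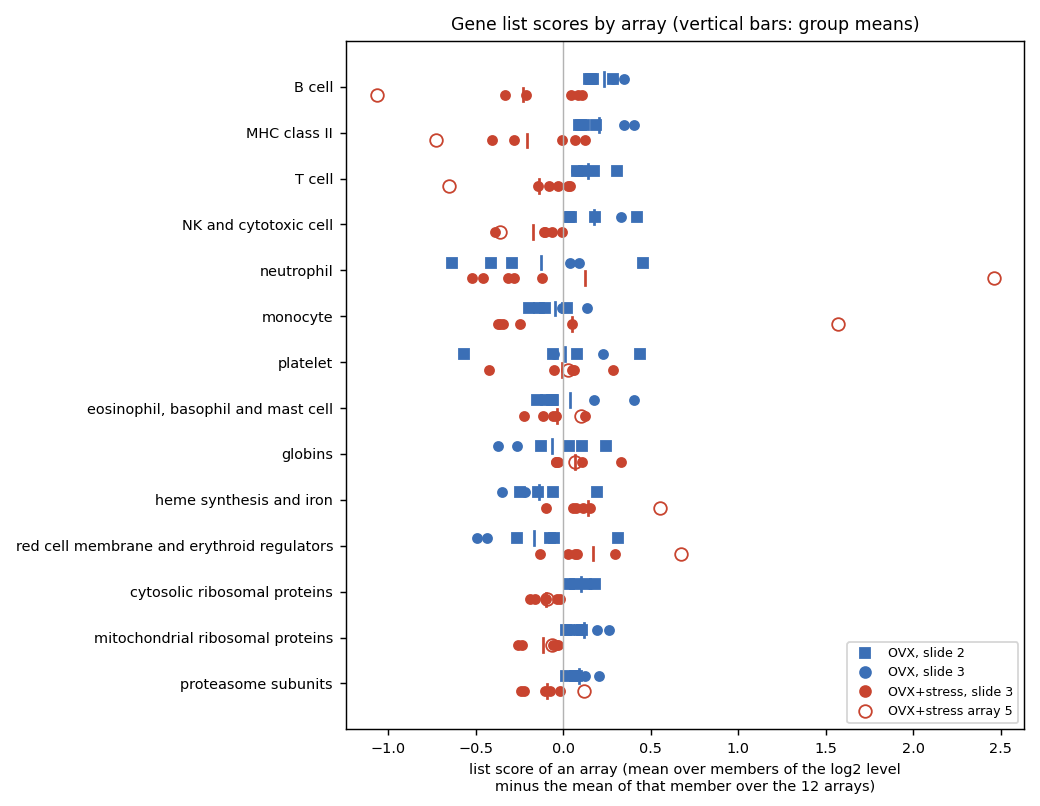
Score of each gene list (y axis) on each array (x axis: mean over the members of the log2 level minus the mean of that member over the 12 arrays). Squares are OVX arrays of slide 2, filled circles arrays of slide 3, the open circle is OVX+stress 5 and vertical bars are group means. The B cell, T cell, NK cell and both ribosomal protein scores do not overlap between the groups, while OVX+stress 5 lies alone at 2.46 in the neutrophil score.

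The genes of the MHC class II pathway were lower in stressed mice. Of 10 members tested, 8 fell, none rose and 2 did not pass the test, against 15.6% of all genes that fell, and the median difference was -0.48. With slide as a block, 9 of 10 members had an unadjusted p under 0.05 in the lower direction (26.3% of all genes), with a median of -0.58. With the block and without OVX+stress 5, 5 of 10 were still called (9.08% of all genes), with a median of -0.48. The level of H2-DMa, a chain of the chaperone that loads peptides, lay between 3.05 and 3.17 (median 3.14) in OVX mice and between 2.49 and 2.82 (median 2.56) in OVX+stress mice. All 6 stressed mice lay below all 6 unstressed mice, and the difference was -0.50 ± 0.09 (SE, n = 6 per group, limma adjusted p = 0.00669). The level of Cd74, the invariant chain that guides class II molecules through the cell, was 6.61 to 6.88 (median 6.77) in OVX mice and 5.82 to 6.53 (median 6.22) in OVX+stress mice. These ranges did not overlap either, and Cd74 fell by 0.53 on the log2 scale (SE 0.12, adjusted p = 0.0109 by limma, -0.45 without OVX+stress 5). The level of H2-Oa, which tempers peptide loading in B cells, was 4.11 to 4.21 (median 4.21) against 2.93 to 3.93 (median 3.62). H2-Oa fell by 0.63 on the log2 scale (SE 0.15, limma adjusted p = 0.012) with no overlap. The chains of the class II molecules themselves fell, with differences of -0.47 for H2-Aa, -0.40 for H2-Eb1 and -0.40 for H2-Ab1, and limma adjusted p of 0.041, 0.0393 and 0.0404. These 3 lay at the threshold without OVX+stress 5, with adjusted p of 0.0499, 0.0523 and 0.0502. The chaperone chain H2-DMb1 fell by 0.43. The exception in the list was Ciita, the transactivator that switches on class II genes, which was not called (0.32, SE 0.27, limma adjusted p = 0.372). Its OVX values split by slide, from -0.10 to 0.15 on slide 2 and from 1.08 to 1.20 on slide 3, and the difference was -0.41 with the block.

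Class II genes share promoter elements, of which the Y box (letters TGATTGG, or CCAATCA on the other strand) binds the factor NF-Y. The window of 120 bases before the annotated start was read from RefSeq promoters (GRCm38.p6) for 7 of the 10 genes. Of the 7, 6 held these letters, against 5.15% of 32851 promoter windows of the same length. Class II windows on an excluded chromosome were not read, a limit not set on the 32851 windows. The genes not read may thus have had windows too. Of the 7 genes, H2-DMa held none in either of its 2 windows. The windows of 4 genes that fell are shown as examples of the shared element, with the Y box letters in capitals. They lie at chr17:34287824-34287943 (minus strand), chr17:34305747-34305866 (plus strand), chr17:34153071-34153190 (plus strand) and chr17:34092259-34092378 (plus strand), all upstream of the gene:
H2-Aa: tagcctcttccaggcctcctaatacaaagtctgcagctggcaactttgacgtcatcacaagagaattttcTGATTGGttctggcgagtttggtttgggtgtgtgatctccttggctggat
H2-Eb1: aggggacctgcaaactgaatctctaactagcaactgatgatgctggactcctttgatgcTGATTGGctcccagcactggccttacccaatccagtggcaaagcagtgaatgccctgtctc
H2-DMb1: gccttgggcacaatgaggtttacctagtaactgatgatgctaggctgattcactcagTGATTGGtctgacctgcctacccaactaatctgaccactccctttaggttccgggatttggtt
H2-Oa: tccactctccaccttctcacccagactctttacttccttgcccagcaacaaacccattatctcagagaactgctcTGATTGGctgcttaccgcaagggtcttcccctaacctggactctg
The first capital lies 50, 61, 63 and 45 bases before the start, in that order. Such a match describes the sequence, and binding was not measured.

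B cell genes were lower as well. Of 20 B cell markers tested, 7 fell and none rose, beside 15.6% and 10.4% of all genes. All 20 differences were below 0, and the median was -0.47. With slide as a block the median was -0.57 and 10 members had an unadjusted p under 0.05 in the lower direction (26.3% of all genes). The score of the list was 0.15 to 0.35 (median 0.22) in OVX mice and -1.07 to 0.10 (median -0.08) in OVX+stress mice, with OVX+stress 5 the lowest and -0.33 the lowest of the others. The level of Fcer2a, the low-affinity IgE receptor CD23 of mature B cells, was 3.25 to 3.77 (median 3.52) in OVX mice and 1.73 to 3.13 (median 2.83) in OVX+stress mice. The groups did not overlap, and the difference was -0.82 ± 0.21 (SE, n = 6 per group, limma adjusted p = 0.0183), or -0.62 without OVX+stress 5. The level of Ebf1, a transcription factor that sets B cell identity, was 1.74 to 2.26 (median 2.10) against 0.65 to 1.88 (median 1.49). The ranges overlapped, and Ebf1 fell by 0.66 on the log2 scale (SE 0.20, adjusted p = 0.0302 by limma). Blk, a Src-family kinase of B cells, and Cd22, an inhibitory coreceptor, fell, with differences of -0.61 and -0.49. The core receptor chain Cd79a (-0.44, limma adjusted p = 0.0899) was below 0 and not called. Without OVX+stress 5 the list median was -0.31 with 8 members called lower (19% of all genes). With the block and without OVX+stress 5, 3 members were called lower (9.08% of all genes).

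T cell and NK cell genes were mostly lower, with exceptions. Of 23 T cell markers, 11 fell, 2 rose and 10 did not pass, while 15.6% of all genes fell and 10.4% rose. The T cell median was -0.39 (-0.28 without OVX+stress 5). The level of Cd3d, a chain of the T cell receptor complex, was 3.87 to 4.06 (median 3.95) in OVX mice and 2.97 to 3.69 (median 3.49) in OVX+stress mice. Cd3d did not overlap and fell by 0.52 on the log2 scale (SE 0.12, limma adjusted p = 0.0109, -0.47 with the block). Its neighbour in the complex, Cd3g, fell by 0.52 as well, and Cd8a, the coreceptor of cytotoxic T cells, by 0.49. Lef1, a transcription factor of naive T cells, fell by 0.60. Cd4, the coreceptor of helper T cells, rose by 0.58 (SE 0.16, limma adjusted p = 0.0246). Its OVX arrays of slide 3 lay 0.56 above those of slide 2, and with the block the difference was 0.21. Cd27, a costimulatory receptor, rose by 0.85 (SE 0.27, limma adjusted p = 0.0381), with levels of 1.44 to 1.92 (median 1.68) in OVX mice and 1.61 to 3.46 (median 2.51) in OVX+stress mice. Its difference was 1.01 with the block and remained called with the block and without OVX+stress 5 (1.19, limma adjusted p = 0.0485). Of 18 NK and cytotoxic cell genes, 9 fell and none rose, beside 15.6% and 10.4% of all genes. Their median was -0.38 in the comparison and with the block. The level of Il2rb, the receptor chain through which NK cells take interleukin signals, was 0.96 to 1.31 (median 1.27) in OVX mice and 0.24 to 0.81 (median 0.56) in OVX+stress mice. The groups did not overlap, and the difference was -0.62 ± 0.12 (SE, n = 6 per group, limma adjusted p = 0.00689). Klrd1, an NK receptor subunit, fell by 0.60, the cytokine Ifng by 0.51 and the chemokine Ccl5 by 0.44. The block lowered the number of T cell members with an unadjusted p under 0.05 to 4 lower and 1 higher of 23, and of NK members to 6 lower of 18. The share of all genes was 26.3% lower and 13.4% higher. With the block and without OVX+stress 5 the T cell median was -0.21, close to that of all genes (-0.23), and the B cell and NK medians were -0.41 and -0.35.

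The neutrophil list as a whole stood far higher in OVX+stress 5 than in any other mouse. Of 26 neutrophil markers, 1 rose and none fell, beside 10.4% and 15.6% of all genes. The median was 0.17, or -0.31 without OVX+stress 5 and -0.11 with the spike-in scaling. Without OVX+stress 5, 1 was called higher and 1 lower, beside 11.1% and 19% of all genes. With the block and without OVX+stress 5, 1 was called higher and 3 lower, beside 4.46% and 9.08%. The level of S100a8, a calcium-binding alarmin that fills the neutrophil cytosol, was 5.74 to 7.52 (median 6.74) in OVX mice and 5.97 to 9.81 (median 6.24) in OVX+stress mice. The highest value was that of OVX+stress 5, and the other 5 stressed mice reached at most 6.47, inside the OVX range. S100a8 differed by 0.15 ± 0.60 (SE, n = 6 per group, limma adjusted p = 0.873). Its partner S100a9 was at 11.17 in OVX+stress 5 and at 8.00 to 8.66 in the other stressed mice, against 7.87 to 9.51 in OVX mice. Camp, an antimicrobial peptide of secondary granules, was at 5.35 in OVX+stress 5, 1.59 to 1.95 in the other stressed mice and 0.97 to 1.67 in OVX mice. The member that rose was Elane, the elastase of primary granules made by immature neutrophils, with 3.46 to 4.22 (median 3.78) in OVX mice and 4.23 to 4.82 (median 4.48) in OVX+stress mice. Elane did not overlap and rose by 0.70 (SE 0.15, limma adjusted p = 0.00942), with 0.37 under the block, and here OVX+stress 5 had the lowest value of its group. Of 15 monocyte markers none was called, beside 10.4% of all genes called higher and 15.6% lower. Their median was 0.06, or -0.23 without OVX+stress 5 and -0.21 with the spike-in scaling. Csf1r, the receptor for the monocyte growth factor, was at 7.16 in OVX+stress 5 and at 5.21 to 5.61 in OVX mice. With the block and without OVX+stress 5 the medians were -0.55 for neutrophil and -0.41 for monocyte genes, beside -0.23 for all genes.

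Several genes of red cells rose. Of 32 genes of the red cell membrane and erythroid regulators, 5 rose and none fell, beside 10.4% and 15.6% of all genes (median 0.33). Without OVX+stress 5, whose score was the highest at 0.67, 4 were called higher, beside 11.1% of all genes. With slide as a block 22 had an unadjusted p under 0.05 in the higher direction (13.4% of all genes), with a median of 0.68. With the block and without OVX+stress 5, 9 were called higher (4.46% of all genes). The OVX arrays of slide 3 differed from those of slide 2 by a median of -0.52 for this list, and its score was -0.49 and -0.43 there against -0.27 to 0.31 on slide 2. Cat, the catalase that removes peroxide, rose by 0.57, and Tspan33, a tetraspanin of red cell precursors, by 0.57. Xpo7, a nuclear exporter used in terminal maturation, rose by 0.56 (block 0.42), and Ube2l6, a ubiquitin-conjugating enzyme, by 0.40, a call that was lost without OVX+stress 5 (limma adjusted p = 0.0568). The anion exchanger Slc4a1 was not called (0.58, limma adjusted p = 0.0862), while its block value was 1.09. Of 20 genes of heme synthesis and iron, 4 rose and none fell, beside 10.4% and 15.6% of all genes (median 0.17, block 0.54). Steap3, the reductase that frees iron inside the cell, was 1.77 to 2.98 (median 2.34) in OVX mice and 3.33 to 3.94 (median 3.44) in OVX+stress mice. The groups did not overlap and Steap3 rose by 1.18 (SE 0.19, limma adjusted p = 0.00621, block 0.91), although a second, dimmer probe for Steap3 differed by 0.08. Slc11a2, an iron importer, rose by 0.77, Blvrb, a biliverdin reductase, by 0.66, and Ppox, an enzyme of heme synthesis, by 0.51 (block 0.36). Alas2, which sets the rate of heme synthesis in red cells, differed by 0.13 (limma adjusted p = 0.494, block 0.46). Of 7 globin genes none was called, beside 10.4% of all genes called higher and 15.6% lower. Their median was 0.17, or 0.00 after quantile normalization and -0.11 with the spike-in scaling. Hba-a1 differed by 0.19 (SE 0.11, limma adjusted p = 0.232). With the spike-in scaling the heme list median was -0.11 and the red cell membrane list median 0.05.

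None of 19 platelet genes and none of 9 eosinophil, basophil and mast cell genes was called by limma (medians -0.03 and -0.08). Among all genes 10.4% were called higher and 15.6% lower. With the block, 0 of the 19 and 4 of the 9 had an unadjusted p under 0.05, beside 13.4% of all genes higher and 26.3% lower. Tubb1, the platelet tubulin, differed by -0.27, and Thbs1, thrombospondin, by 0.26. Ccr3, the eotaxin receptor of eosinophils, differed by -0.51 (SE 0.20, limma adjusted p = 0.0789). Among tissue markers, Kdr, a receptor for endothelial growth factor, rose by 0.60, and the liver lipoprotein genes Apoa2 and the protease inhibitor Serpina1a rose by 0.56 and 0.57, with a block value of 0.36 for Apoa2. Fgb, a fibrinogen chain, differed by -0.19 in all 12 arrays and by 0.68 with the block, since its OVX values split by slide. Fat cell markers Fabp4 (-0.04) and Retn (0.02) and the collagen gene Col1a2 (-0.01) showed no detectable difference at this number of arrays.

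**Figure D2:**
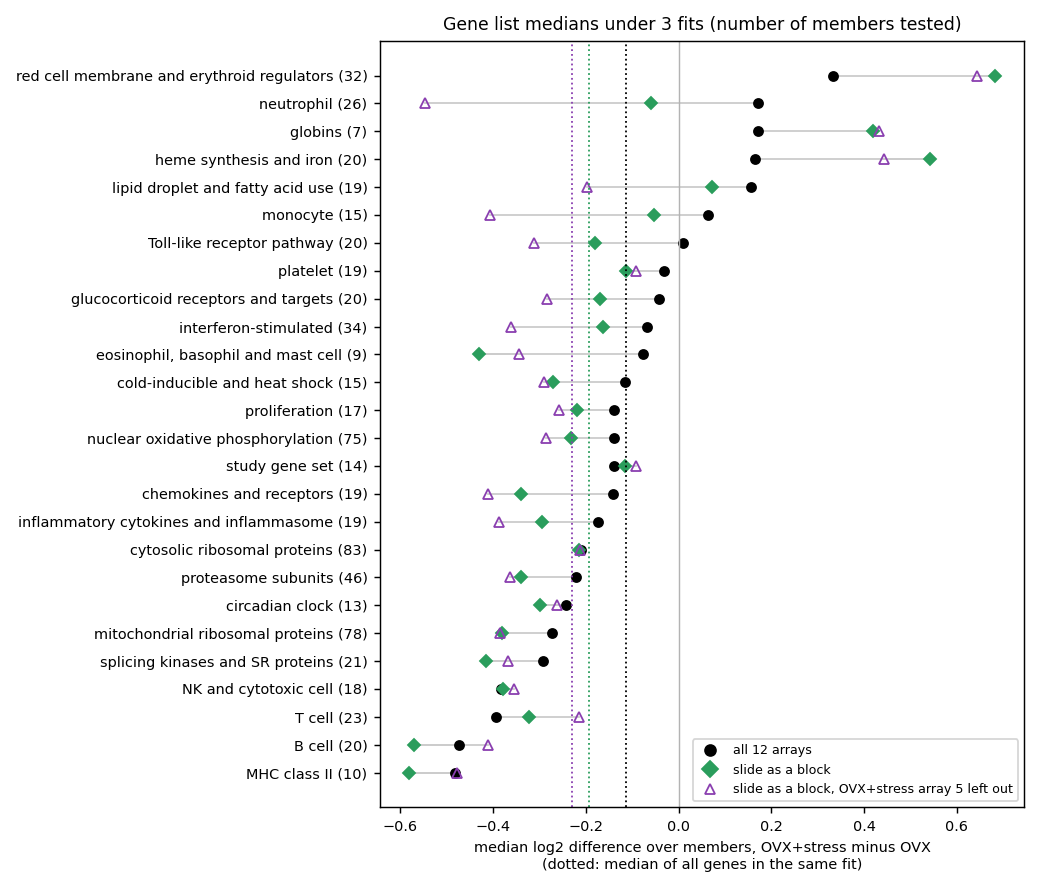
Median log2 difference (x axis, OVX+stress minus OVX) over the tested members of each gene list (y axis, number of members in brackets) in 3 fits: all 12 arrays (black circles), slide as a block (green diamonds), and slide as a block without OVX+stress 5 (open triangles). Dotted lines are the median of all genes in each fit, at -0.11, -0.19 and -0.23. MHC class II and B cell medians lie below these lines in all 3 fits, and the red cell membrane median lies at 0.33, 0.68 and 0.64.

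The plot of list medians sets these groups beside the machinery of protein synthesis and breakdown, where most of the called members were lower. Of 83 cytosolic ribosomal protein genes, 34 fell and 1 rose, with a median of -0.21 (block -0.22). Without overlap between the groups 24 were lower, beside 11.1% of all probes that did not overlap in either direction. Among all genes 15.6% fell, and the median was -0.11, or -0.19 with the block. Of the 83, 5 were called lower with the block and without OVX+stress 5 (9.08% of all genes), and their median of -0.21 was close to that of all genes (-0.23). Rpl3, a large-subunit protein at the catalytic centre, was 6.69 to 6.98 (median 6.84) in OVX mice and 6.11 to 6.52 (median 6.27) in OVX+stress mice. Rpl3 did not overlap and fell by 0.56 on the log2 scale (SE 0.09, limma adjusted p = 0.00621). Rps18 fell by 0.51, Rpl10a by 0.50 and Rpl18 by 0.50, and Rps15 rose by 0.28. Rps29, used by the study as a reference gene, lay between 8.80 and 9.08 in OVX mice and between 8.90 and 9.07 in OVX+stress mice and differed by 0.04 (SE 0.08). Of 78 mitochondrial ribosomal protein genes, 29 fell and 2 rose, with a median of -0.27. With the block, 52 of them had an unadjusted p under 0.05 in the lower direction (median -0.38), and 25 were called lower with the block and without OVX+stress 5, against 9.08% of all genes. Mrpl15 was 1.03 to 1.26 (median 1.17) in OVX mice and 0.53 to 0.85 (median 0.67) in OVX+stress mice, and Mrpl47 fell by 0.61. Mrpl15 did not overlap and fell by 0.46 on the log2 scale (SE 0.09, limma adjusted p = 0.00724). The members that rose were Mrpl2 (0.98, block 0.49) and Mrps10 (0.71, block 0.62). Of 46 proteasome genes, 15 fell and 1, the activator subunit Psme3 (0.38), rose, with a median of -0.22 and, with the block, 26 at an unadjusted p under 0.05 in the lower direction (26.3% of all genes). Psmc4, an ATPase of the regulatory particle, was 2.06 to 2.20 (median 2.14) in OVX mice and 1.49 to 1.79 (median 1.68) in OVX+stress mice. Psmc4 did not overlap and fell by 0.47 on the log2 scale (SE 0.08, limma adjusted p = 0.00633). The interferon-inducible subunits Psmb9 and Psmb8 of the immunoproteasome fell by 0.50 and 0.35, and the assembly chaperone Psmg1 fell by 0.37. Of 75 nuclear genes of oxidative phosphorylation, 6 fell and 3 rose, beside 15.6% and 10.4% of all genes. Without OVX+stress 5, 15 were called lower (19% of all genes), and with the block as well 12 (9.08% of all genes). The complex I subunits Ndufs8 and Ndufb7 fell by 0.47 and 0.40, and the ATP synthase subunit Atp5d fell by 0.41. Atp5j2, another subunit of ATP synthase, rose by 1.03 (block 0.57), and its OVX values were 7.16 to 7.73 on slide 2 and 8.08 and 8.28 on slide 3. Cox7a1, a subunit of cytochrome oxidase, rose by 0.83 (block 0.39), and Atp5b rose by 0.29.

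Few genes tied to stress hormones were called, and most genes of the body clock were below 0. Of 20 glucocorticoid receptors and targets, 1 rose and 2 fell, beside 10.4% and 15.6% of all genes, and the median was -0.04. The level of Per1, which is both a clock gene and a glucocorticoid target, was 2.32 to 2.53 (median 2.44) in OVX mice and 1.79 to 2.21 (median 2.02) in OVX+stress mice. Per1 did not overlap and fell by 0.42 on the log2 scale (SE 0.10, limma adjusted p = 0.0123), with the same value under the block. Nfkbia, the inhibitor of NF-kappa B, fell by 0.34, and Mt1, a metallothionein, rose by 0.43 (block 0.68), a call that was lost without OVX+stress 5 (limma adjusted p = 0.0508). The glucocorticoid receptor Nr3c1 was not called (-0.31, SE 0.11, limma adjusted p = 0.0629). Of 13 clock genes, 3 fell and none rose, beside 15.6% and 10.4% of all genes (median -0.24). The 3 were Per1, the core activator Arntl (-0.43, limma adjusted p = 0.0331) and the output factor Dbp (-0.43, limma adjusted p = 0.0378). With the block 3 of the 13 had an unadjusted p under 0.05 in the lower direction, beside 26.3% of all genes. With the block and without OVX+stress 5, 1 was called lower, beside 9.08% of all genes. Of 15 cold-inducible and heat shock genes, 3 fell, beside 15.6% of all genes: Hspa4 (-0.39), a heat shock protein of the HSP110 family, Hsf1 (-0.33), their main transcription factor, and Cirbp (-0.61), a cold-inducible RNA-binding protein. A second probe for Cirbp was above 0 and not called (0.24). Hsf1 lost its call without OVX+stress 5 (-0.27, limma adjusted p = 0.0699), which left 2 of 15 beside 19% of all genes. Of 21 splicing kinases and SR proteins, 7 fell and none rose, beside 15.6% and 10.4% of all genes (median -0.29, block -0.41). Among those that fell were the kinases Clk2 (-0.46) and Clk4 (-0.44), the splicing factor Srsf6 (-0.34) and the helicase Ddx5 (-0.37). Of these 21, 1 was called with the block and without OVX+stress 5, beside 9.08% of all genes.

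Of 19 cytokine and inflammasome genes, 2 rose and 2 fell, beside 10.4% and 15.6% of all genes, and 15 of the 19 differences were below 0. Without OVX+stress 5, 3 were called higher and 8 lower (11.1% and 19% of all genes). The level of Csf1, the growth factor of monocytes, was 2.74 to 3.14 (median 2.99) in OVX mice and 3.30 to 3.81 (median 3.47) in OVX+stress mice. Csf1 did not overlap and rose by 0.57 (SE 0.11, limma adjusted p = 0.0073), or 0.47 with the block. Nlrp3, the sensor of the inflammasome, rose by 0.50 (block 0.25). Nfkb1, a subunit of NF-kappa B, was 0.86 to 1.03 (median 0.92) in OVX mice and 0.16 to 0.79 (median 0.45) in OVX+stress mice, a fall by 0.48 (SE 0.11, limma adjusted p = 0.0111). Ltb, a lymphotoxin made by lymphocytes, was the other member that fell. Of 20 genes of the Toll-like receptor pathway, 4 fell and 3 rose, beside 15.6% and 10.4% of all genes. The median of 0.01 was -0.27 with the spike-in scaling. The endosomal receptors Tlr9 and Tlr7 rose by 0.47 and 0.60 and the kinase Irak2 by 0.29 (block 0.14), while the receptor Tlr1 fell by 0.33 and Unc93b1, which carries the endosomal receptors to their compartment, fell by 0.47. Sigirr, which dampens this pathway, was 2.17 to 2.45 (median 2.25) in OVX mice and 1.09 to 1.94 (median 1.72) in OVX+stress mice. Sigirr did not overlap and fell by 0.65 on the log2 scale (SE 0.13, limma adjusted p = 0.00781). Of 19 chemokines and receptors, 4 fell and none rose, beside 15.6% and 10.4% of all genes: the receptors Cxcr3 (-0.48), Cxcr6 (-0.46) and Ccr9 (-0.50), which guide lymphocytes, and Ccl5. Of 34 interferon-stimulated genes 1 fell, Ly6e (-0.42), beside 15.6% of all genes. Without OVX+stress 5, whose score was the highest at 0.69, 7 of the 34 were called lower, beside 19% of all genes. Isg20, Stat2 and Bst2 were not called (0.42, -0.31 and -0.36).

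Cell division and fat metabolism lists were split. Of 17 proliferation genes, 5 fell and 3 rose, beside 15.6% and 10.4% of all genes. The replicative helicase subunits Mcm3, Mcm4, Mcm5, Mcm6 and Mcm7 fell by 0.33 to 0.49, whereas the mitotic genes Ccna2 (0.51), Mki67 (0.49) and Birc5 (0.36) rose. With the block these 3 differences were 0.86, 0.83 and 0.61, and their OVX arrays of slide 3 differed from those of slide 2 by -0.52, -0.51 and -0.38. Ccna2 lost its call without OVX+stress 5 (0.44, limma adjusted p = 0.0792). Of 19 genes of lipid droplets and fatty acid use, 3 rose and 1 fell, beside 10.4% and 15.6% of all genes. The median of 0.16 turned to -0.11 without OVX+stress 5 and to -0.12 with the spike-in scaling. The lipid droplet proteins Cidec and Cideb rose by 0.55 and 0.65, with limma adjusted p of 0.044 and 0.0442, and Cidec lost its call without OVX+stress 5 (adjusted p = 0.0538). Ppara, a nuclear receptor for fatty acids, rose by 0.57, and the dehydrogenase Acadm fell by 0.31.

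Of the 14 genes that the study took to patients, 3 rose and 4 fell here, beside 10.4% and 15.6% of all genes. In mice the study kept probes that changed in OVX+stress mice and not after OVX or stress alone. Its reference was sham-operated unstressed controls, while the reference here was OVX. The study then matched these genes with those that followed the depressive state in blood of patients. It thus chose the 14 in part on these same blood samples, so their directions are not independent evidence. The level of Slc36a1, an amino acid transporter of the lysosome, was 2.15 to 2.42 (median 2.32) in OVX mice and 2.50 to 2.92 (median 2.71) in OVX+stress mice. Slc36a1 did not overlap and rose by 0.41 (SE 0.10, limma adjusted p = 0.0126, block 0.49). A dimmer probe for Slc36a1 differed by 0.75, and by 0.26 with the block. Rnase1, a secreted ribonuclease, rose by 0.87 (SE 0.30, limma adjusted p = 0.0489), and its block value was 0.41. Rnase1 was not called without OVX+stress 5 (limma adjusted p = 0.0534). Sigirr, Slc35f2 (-0.32) and the brightest of 3 probes of Arfrp1 (-0.31) fell, as did Bcl11b, a transcription factor of T cells, with its brighter probe (-0.63, limma adjusted p = 0.0468) and not with a second one (-0.29). The brighter probe of Bcl11b gave -0.19 with the block and -0.02 with the block and without OVX+stress 5, and it was not called without that array (limma adjusted p = 0.0588). All 4 of its OVX values on slide 2 were at least 1.06, and those on slide 3 were 0.51 and 0.66. Styxl1, Rab11fip4, Banp, Fyco1, Nipal3, Rps2 and Rpl23a were not called, with differences from -0.33 (Fyco1) to 0.37 (Styxl1).

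Called genes with a mean level of at least 0 in 1 or both groups were ranked by their most changed probe. The 10 that rose most were Usp15, Gm10144, Dppa2, Lcn12, Th, Fxyd1, Fuom, Cyp4b1, Rhox6 and 4921504E06Rik, with differences of 1.29 to 1.78. Usp15, Dppa2 and Rhox6 passed this filter only through OVX+stress mice, with OVX medians of -0.95, -0.92 and -1.40. The level of Usp15, a deubiquitinating enzyme, was -1.29 to -0.90 on the OVX arrays of slide 2, 0.35 and 0.54 on those of slide 3, and 0.93 to 1.68 in OVX+stress mice. The difference of 1.78 ± 0.31 (SE, n = 6 per group, limma adjusted p = 0.00656) was 0.76 with the block, and a second, brighter probe for Usp15 gave 0.55, or 0.75 with the block. Lcn12, a lipocalin that carries small lipids, was 5.20 to 5.62 on slide 2 and 6.71 and 6.93 on slide 3 among OVX mice, and 6.92 to 7.85 in OVX+stress mice. The difference was 1.52 in all 12 arrays and 0.55 with the block. Th, the enzyme that begins catecholamine synthesis, rose by 1.43 (block 0.79), and Fxyd1, a regulator of the sodium pump, by 1.41 (block 0.60). The block values were 0.75 for Gm10144, 0.88 for Dppa2, 0.79 for Cyp4b1, 0.47 for Rhox6 and 0.65 for 4921504E06Rik. For Usp15, Lcn12, Th and Fxyd1 the OVX arrays of slide 3 lay above those of slide 2, by 0.96 to 1.53. Fuom, a fucose mutarotase, was the exception. Its level was 1.11 to 1.71 (median 1.38) in OVX mice and 2.11 to 3.32 (median 2.94) in OVX+stress mice. The groups did not overlap, the difference was 1.41 ± 0.19 (SE, n = 6 per group, limma adjusted p = 0.00621) and with the block it was 1.35. Its probe lies at chr7:147286990-147287049 on the minus strand (mm9).

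**Figure D3:**
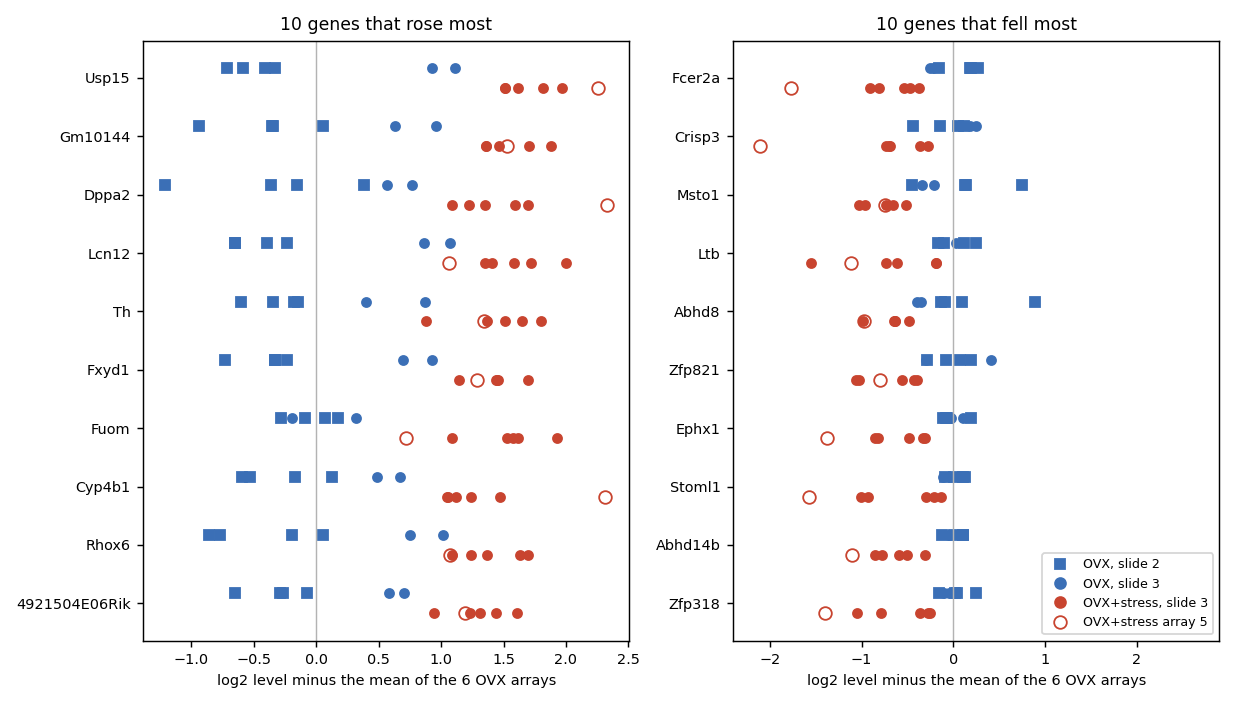
Log2 level of each array minus the mean of the 6 OVX arrays (x axis) for the 10 genes that rose most (left) and the 10 that fell most (right). Symbols are as in the plot of list scores. On the left the OVX arrays of slide 3 (circles) lie nearer to the stressed mice than those of slide 2 (squares) do, except for Fuom, whose OVX arrays of both slides mix. On the right OVX+stress 5 is the lowest point for Fcer2a, Crisp3, Ephx1, Stoml1, Abhd14b and Zfp318.

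As the plot of the 20 genes shows, the falls were smaller than the rises. The 10 that fell most under the same filter were Fcer2a, Crisp3, Msto1, Ltb, Abhd8, Zfp821, Ephx1, Stoml1, Abhd14b and Zfp318, with differences of -0.82 to -0.69. Crisp3, Abhd8 and Zfp821 passed it only through OVX mice, since all their OVX+stress levels were below 0. With the block Abhd8 was at -0.35 and Msto1 at -0.50, and the OVX values of Abhd8 were 0.26 to 1.29 on slide 2 and 0.00 to 0.05 on slide 3. The block values of the other 8 ran from -1.03 (Crisp3) to -0.58 (Fcer2a). The level of Ltb was 4.38 to 4.78 (median 4.50) in OVX mice and 2.99 to 4.35 (median 3.86) in OVX+stress mice, without overlap. The difference was -0.73 ± 0.21 (SE, n = 6 per group, limma adjusted p = 0.0258) and -0.69 with the block. Abhd14b, an enzyme of the hydrolase fold family, was 0.76 to 0.99 (median 0.87) against -0.22 to 0.58 (median 0.20). Abhd14b fell by 0.69 on the log2 scale (SE 0.13, adjusted p = 0.00669 by limma, block -0.65). Crisp3, a cysteine-rich secretory protein, was -0.44 to 0.25 (median 0.08) in OVX mice and -2.10 to -0.28 (median -0.69) in OVX+stress mice. The lowest value was that of OVX+stress 5, and the difference was -0.81 in all arrays and -0.56 without it. Ephx1, an epoxide hydrolase, fell by 0.70 with this probe, while a second, dimmer probe for Ephx1 rose by 0.29 (limma adjusted p = 0.0297). Among dim probes Mipep, a mitochondrial peptidase, Rapgef3, an exchange factor activated by cyclic AMP, and Marveld2, a tight junction protein, had the lowest differences (-0.95, -0.91 and -0.91). Rapgef3 was at -1.39 with the block and was not called without OVX+stress 5 (-0.72, limma adjusted p = 0.0582). Only 1 probe was well above background on all 6 OVX arrays and on none of the OVX+stress arrays: a probe for Crmp1, at least 1.58-fold brighter in OVX mice. One probe of a noncoding region showed the opposite.

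The share of probes called in each direction varied with the base composition of the probes. Among probes with under 40% C and T among their 60 bases, 3.77% were called higher and 17.1% lower, and among those with 60% or more, 24.4% and 5.01%. By G and C the shares called higher were 6.48% under 40% and 50.0% at 60% or more. The shares called lower also rose, from 10.4% under 40% to 14.4% at 50% to under 60%. They were 4.27% at 60% or more, a bin of 586 probes. The median difference in the C and T bins ran from -0.15 to 0.20 in all 12 arrays and from -0.22 to 0.30 with slide as a block. All 10 named risers and 2 of the 10 named fallers had over 50% C and T, with medians of 57.5% and 44.2%. The median over probes not called was 51.7%. Both sets were picked by their differences on these same arrays, so they are examples from the bins and not separate evidence. Probes of noncoding RNA regions, 5321 of those tested, were called higher in 25.3% and lower in 3.27%, and probes of the 15060 matched transcripts in 8.04% and 16.8%. The part of probe composition in the results above was not tested.

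**Figure D4:**
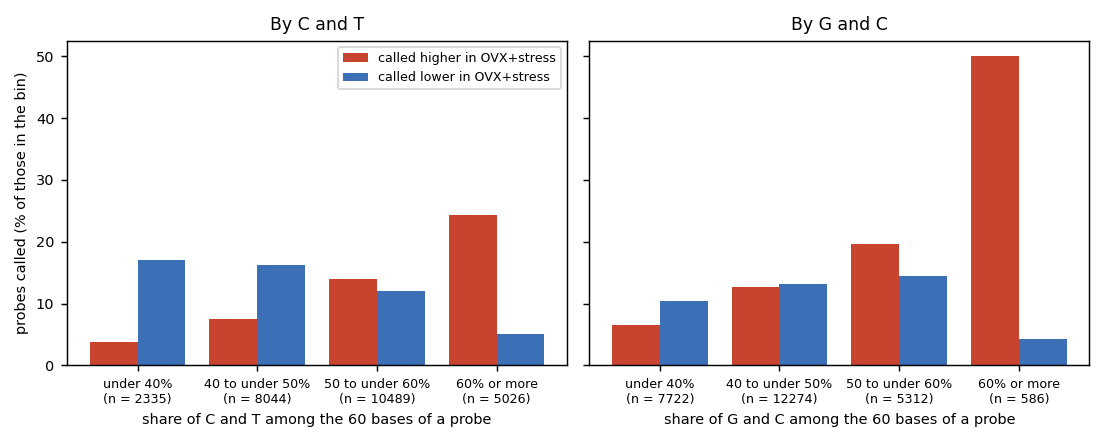
Share of probes called higher (red) or lower (blue) in OVX+stress mice (y axis, percent of the probes in the bin) by the share of C and T (left) or G and C (right) among the 60 bases of a probe. The share called higher climbs from 3.77% to 24.4% with C and T, while the share called lower declines from 17.1% to 5.01%.

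The same stress contrast was measured in sham-operated mice (6 control and 6 stress arrays), and the difference of the 2 effects was tested on 21675 probes. By limma 249 probes (1.15%) were called, 226 with a higher effect after ovariectomy (1.04%) and 23 with a lower one (0.106%), and without OVX+stress 5 none was called (3759 at an unadjusted p under 0.05). With slide as a block none was called either (230 at an unadjusted p under 0.05). The sham-operated stress arrays also split by slide, with 1 and 2 on slide 1 beside the controls and 3 to 6 on slide 2. The effect of Usp15 was 1.78 after ovariectomy and -1.12 after sham surgery, a difference of 2.91 that was 0.28 with the block. The sham-operated stress values of Usp15 were -0.59 to 2.51 with a median of -0.27. Ciita had an effect of 0.32 after ovariectomy and -1.23 after sham surgery, and the difference of 1.56 (limma adjusted p = 0.0455) was 0.24 with the block. The effect of Fuom was 1.41 after ovariectomy and 0.10 after sham surgery, with a difference of 1.31 ± 0.29 (SE, limma adjusted p = 0.0455) that was 0.76 with the block (unadjusted p = 0.0581 by limma). Fuom was 1.89 to 2.52 (median 2.22) in control mice and 1.80 to 3.33 (median 2.29) in stressed sham-operated mice. The OVX mice thus held the lowest Fuom values of the 4 groups and the OVX+stress mice the highest median of Fuom.

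**Figure D5:**
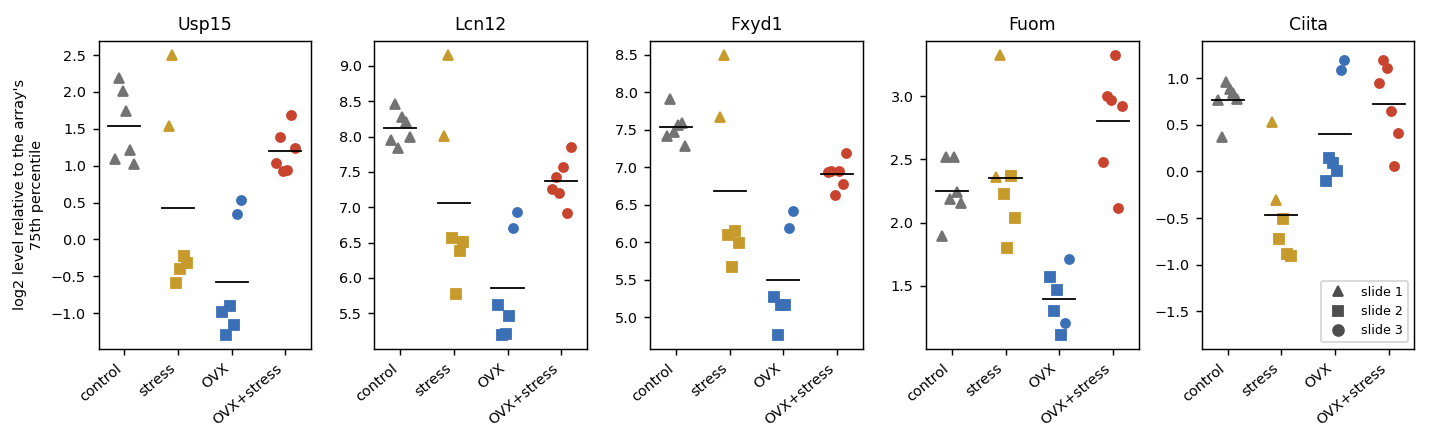
Log2 level relative to the 75th percentile of the array (y axis) of 5 genes in the 4 blood groups (x axis), with 1 point per mouse, its slide given by the symbol, and the group mean as a line. Within the stress and OVX groups the values of Usp15, Lcn12 and Fxyd1 separate by slide, and Fuom in OVX mice does not.

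The plot of the 4 groups shows the OVX values of Usp15, Lcn12, Fxyd1 and Ciita in 2 sets by slide, and the block compares the stressed mice with the slide 3 set alone.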

How the data were processed

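Blood RNA of 12 mice was hybridized to 1-colour Agilent SurePrint G3 Mouse 8x60K arrays. The authors deposited scanner files from Feature Extraction 10.7.3.1, whose processed signal is a background-subtracted intensity per spot, and a table of log2 values normalized by the authors to the 75th percentile in GeneSpring. For 25665 single-spot probes that table equalled the values used here up to a constant per array (100% within 0.001), and its column medians ran from -2.93 to -2.66.

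For each array, log2 of the processed intensity minus that of its 75th percentile was taken, control spots and outlier-marked spots were left out, and spots of a probe were averaged. Of 55681 probes, the 25894 well above background on all 12 arrays were tested with limma 3.58.1 (lmFit and eBayes, R 4.3.3) on the 2 groups, with Benjamini-Hochberg adjustment over all probes. No spot was saturated. The number of arrays limits the precision. Symbols came from the files' accessions through RefSeq (GRCm38.p6), which matched 21026 of 22489 transcripts. The test was also run on simulated data.

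The members and gene lists were chosen with earlier results of these data known. Named genes were the 10 that rose and the 10 that fell most among called probes with a group mean at or above the 75th percentile, the 3 of each over all called probes, up to 4 members of each list with the smallest p, the study's 14 genes and Rps29; other genes were named after their values were seen. Some results that these rules select are not reported here. A list score is the mean over members of the level minus that member's mean over the 12 arrays. Alternatives were background correction by normexp, other normalizations, filters, samples in the fit, slide and replicate number as blocks, and leaving out each array. The authors' own comparisons were not used.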

Additional observations from a re-analysis of the deposited data

Results flagged for a closer look

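In 33 of 370 groups of 6 values (154 probes and 31 list scores, 2 groups each), 1 array stood apart from the other 5 by more than the critical value of Dixon's test allows, where chance gives about 1 in 20. OVX+stress 5 was that array in 23 of the 33. Its list scores were 2.46 for neutrophil, 1.57 for monocyte, 1.23 for fat cell, 0.64 for lipid droplet, 0.54 for Toll-like receptor, 0.44 for glucocorticoid, 0.38 for cytokine and -0.65 for T cell genes, and the nearest other stressed mouse stood at -0.12, 0.05, 0.06, 0.03, -0.04, 0.01, -0.07 and -0.15. OVX+stress 5 was the highest of its group for S100a9 (11.17), S100a8 (9.81), Blvrb (7.20), Csf1r (7.16), Cat (6.47), Camp (5.35), Cyp4b1 (2.85) and Retn (0.10). It was the lowest for Lef1 (3.22), Cd3g (1.66), Dbp (0.31), both probes of Bcl11b (-0.44 and -0.83), Crisp3 (-2.10) and Rapgef3 (-2.51).

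The other arrays that stood apart did so for single probes. They were OVX 1 for Mipep (-0.31) and Arfrp1 (-2.02), OVX 2 for Cd3g (2.91), OVX 3 for Tspan33 (6.96) and Cirbp (2.54), OVX 4 for Marveld2 (0.44), OVX 5 for Rapgef3 (0.60), OVX+stress 1 for a second probe of Arfrp1 (0.38), OVX+stress 3 for Isg20 (9.75) and OVX+stress 4 for Steap3 (3.94).

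The stress effect differed between ovariectomized and sham-operated mice by an interaction term (limma, adjusted p under 0.05) for 10 of the genes named. The differences were 2.91 for Usp15, 2.57 for Lcn12, 2.52 for Dppa2, 2.27 for Fxyd1, 2.23 for Gm10144, 1.97 for Th, 1.86 for 4921504E06Rik, 1.56 for Ciita, 1.5 for Mrpl2 and 1.31 for Fuom. With slide as a block the same differences were 0.28, 0.09, 0.39, 0.06, 0.14, 0.14, 0.10, 0.24, -0.01 and 0.76, and none was called.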

How the results depend on the processing

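The 6611 called probes (3393 higher, 3218 lower) became 0 with slide as a block and 0 within slide 3, where 2 OVX arrays remain. With the block and without OVX+stress 5, an alternative chosen after seeing the data, 3146 were called (1459 higher, 1687 lower). Leaving out 1 array gave 3192 (without OVX 2) to 7474 (without OVX+stress 5) called probes, with 1928 to 3587 higher and 1264 to 3887 lower. The next lowest counts came without OVX+stress 4 (3395) and OVX+stress 6 (3318). Other counts were 4368 with the spike-in shift (181 higher, 4187 lower), 1655 of 55658 without a detection filter (1231 and 424), 3695 with all 4 blood groups in the fit (1993 and 1702), and 4497 against the OVX arrays of slide 2 (2987 and 1510). Of the called probes, 51.3% were higher, against 4.14% with the spike-in shift, 44.4% after quantile normalization, 48.2% with normexp and 52.7% with the percentile over detected probes. With replicate number as a block, 3073 were called (2167 and 906). The numbers did not pair the mice, since same-numbered deviations correlated by -0.18 to 0.28 and 1 of 6 correlated best with its own number. The 249 probes whose stress effect differed by surgery became 0 with the slide block, 0 without OVX+stress 5 and 13 without moderation. Of 171 named probes no called one changed direction in these settings, which all reuse arrays of the comparison. Fgb, not called, turned from -0.19 to 0.70 with the block and without OVX+stress 5. With the slide block 118 of the 171 lost their call. The causes were not tested. Signal over background limited the test to 25894 of 55681 probes.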
